A study of Mus musculus with 4 samples.

Results

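Deaf1 ChIP-seq peaks were examined at 10 genes of glycolysis in C2C12, an established line of mouse myoblasts whose cells can fuse into myotubes. Of these, Pfkm, Pgam2 and Eno3 encode the muscle forms of their enzymes. Hk1, Hk2, Gpi1, Aldoa, Gapdh, Pgk1 and Pkm were grouped as widely expressed, which does not exclude high levels in muscle. The 10 genes are among 21631 protein-coding genes of the reference on chromosomes 1 to 19 and X. They were chosen by name, with earlier results of these data known. Every peak that lay inside a gene's RefSeq span or within 5 kb of it was counted. The groups were Deaf1 ChIP (2 samples, replicates 1 and 2) and input chromatin (2 samples); the input entered no comparison because only the ChIP peak lists were used. All came from formaldehyde-fixed C2C12 cells whose chromatin was cut by enzyme. The sample labels call them myocytes and name no genotype or treatment, and the design text of the series has myoblasts that were differentiated. The stage of differentiation is thus not settled, the line is a single one, and peak lists hold no expression values by which the cell type could be checked. The labels do not say whether the replicates were separate cultures, and the spread between them may be technical only.

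Glycolysis splits glucose into pyruvate in the cytosol and yields ATP without oxygen. Hexokinase traps glucose as its phosphate, phosphofructokinase commits it to the pathway, aldolase splits the sugar, and the later enzymes gain ATP at phosphoglycerate kinase and pyruvate kinase. Several steps have paralogous enzymes, and differentiating muscle cells switch on the muscle forms of phosphofructokinase, phosphoglycerate mutase and enolase. Deaf1 is a transcription factor with a SAND domain that binds DNA through TTCG motifs.

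The 250 bases before a gene start are printed for 8 of the 17 annotated starts, chosen after their values were seen, to show how differently such starts were marked. The inner start of Pfkm and the start of Eno3 had summits in replicate 1 alone, and the start of Pgam2 had folds of 7.02 in replicate 1 and 4.17 in replicate 2. Gpi1 and Pgk1 had folds of at least 11.2 in both replicates. The outermost starts of Pfkm and Aldoa and the start of Gapdh are shown as cases that do not follow that split. The sequences are from RefSeq (GRCm38.p6, the assembly behind mm10), 5′ to 3′ on the gene's strand, with TTCG and its reverse complement CGAA in capitals.
Pfkm, outermost start, chr15:98092339-98092588, plus strand: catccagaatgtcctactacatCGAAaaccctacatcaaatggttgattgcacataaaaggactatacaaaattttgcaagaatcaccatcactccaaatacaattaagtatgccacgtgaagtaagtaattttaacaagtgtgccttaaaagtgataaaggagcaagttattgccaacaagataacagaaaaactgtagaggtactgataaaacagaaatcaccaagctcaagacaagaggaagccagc
Pfkm, inner start, chr15:98108306-98108555, plus strand: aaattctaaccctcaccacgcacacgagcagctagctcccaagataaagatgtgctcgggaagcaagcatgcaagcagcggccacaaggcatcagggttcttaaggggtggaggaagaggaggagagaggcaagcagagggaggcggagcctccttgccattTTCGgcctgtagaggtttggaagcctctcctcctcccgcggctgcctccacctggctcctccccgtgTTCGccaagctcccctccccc
Pgam2, chr11:5803797-5804046, minus strand: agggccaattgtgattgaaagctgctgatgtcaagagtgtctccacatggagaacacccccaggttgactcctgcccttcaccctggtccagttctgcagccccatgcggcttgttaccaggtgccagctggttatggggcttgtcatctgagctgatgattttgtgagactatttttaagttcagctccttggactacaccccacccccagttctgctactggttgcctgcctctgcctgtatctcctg
Eno3, chr11:70656926-70657175, plus strand: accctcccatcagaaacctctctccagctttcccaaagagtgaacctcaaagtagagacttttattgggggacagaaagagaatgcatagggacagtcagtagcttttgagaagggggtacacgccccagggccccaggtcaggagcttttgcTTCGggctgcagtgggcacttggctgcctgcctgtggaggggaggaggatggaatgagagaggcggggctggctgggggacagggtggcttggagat
Aldoa, outermost start, chr7:126800448-126800697, minus strand: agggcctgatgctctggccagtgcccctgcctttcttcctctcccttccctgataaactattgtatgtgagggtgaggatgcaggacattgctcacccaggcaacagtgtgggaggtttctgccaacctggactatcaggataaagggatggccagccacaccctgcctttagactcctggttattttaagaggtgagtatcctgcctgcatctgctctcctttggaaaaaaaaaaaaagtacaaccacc
Gapdh, chr6:125165774-125166023, minus strand: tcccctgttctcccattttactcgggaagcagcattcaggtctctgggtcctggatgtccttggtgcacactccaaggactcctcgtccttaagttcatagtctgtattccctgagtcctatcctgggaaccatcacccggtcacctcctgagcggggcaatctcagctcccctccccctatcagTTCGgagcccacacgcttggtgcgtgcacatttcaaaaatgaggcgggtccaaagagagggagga
Gpi1, chr7:34230337-34230586, minus strand: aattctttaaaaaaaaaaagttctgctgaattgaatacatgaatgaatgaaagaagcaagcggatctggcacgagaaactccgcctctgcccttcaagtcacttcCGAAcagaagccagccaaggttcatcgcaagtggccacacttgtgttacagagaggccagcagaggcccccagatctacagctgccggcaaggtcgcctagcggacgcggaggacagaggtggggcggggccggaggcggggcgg
Pgk1, chrX:106186850-106187099, plus strand: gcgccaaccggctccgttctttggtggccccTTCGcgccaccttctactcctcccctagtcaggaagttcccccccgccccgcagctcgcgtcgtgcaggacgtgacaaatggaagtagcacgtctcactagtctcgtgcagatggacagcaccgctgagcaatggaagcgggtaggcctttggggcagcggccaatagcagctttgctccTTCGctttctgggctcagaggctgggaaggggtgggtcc
Among the muscle forms the stretches held 1 CpG dinucleotide for Pgam2, 3 for Eno3, and 2 and 10 for the outermost and inner Pfkm starts. Among the widely expressed forms they held 0 for Aldoa, 8 for Gapdh, 14 for Gpi1 and 17 for Pgk1. The start table stops short of the 5′ end of the RefSeq span by 4051 bp at Eno3, 694 bp at Gapdh, 547 bp at Aldoa and 12 bp at Hk1. In this text a start is one listed in that table.

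Replicate 1 had 65582 peaks on the chromosomes used and replicate 2 had 26482, with median folds of 6.07 and 8.34. The fold is the authors' enrichment of the summit, the highest point of a peak, over the background their peak caller estimated. The read depth of the samples is unknown. Each summit's pileup, the number of fragments over it, was recovered from the fold and the p-value, and is given with an exact 95% Poisson interval that covers counting error only. A shared region is a block of overlapping peaks from both replicates. There were 22880 of them, and their median ratio of replicate 1 to replicate 2 pileup was 1.44.

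All 10 glycolytic genes had a shared region inside the span or within 5 kb, where 63.6% of all protein-coding genes did. A shared region needs a peak of each replicate, so all 10 had peaks of both by definition. Of all genes, 72.9% had a peak in replicate 1 and 64.2% in replicate 2. Among genes with spans no shorter and no longer than those of the members, 67.9% had a shared region. No test was made of this difference, since genes of a pair of libraries are not replicates. In the windows of the 10 genes replicate 1 had 71 peaks and replicate 2 had 30, which made 26 shared regions. All 30 peaks of replicate 2 had a partner in replicate 1, as did 94.0% of that whole list. Of the 71 in replicate 1, 26 (36.6%) had one, against 35.0% of the whole list. The 45 replicate 1 peaks without a partner had folds from 3.19 to 13.4 with a median of 5.11. The median fold of the 26 shared regions was 13.6 in replicate 1 and 10.2 in replicate 2, against 12.5 and 9.48 over all shared regions.

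**Figure D1:**
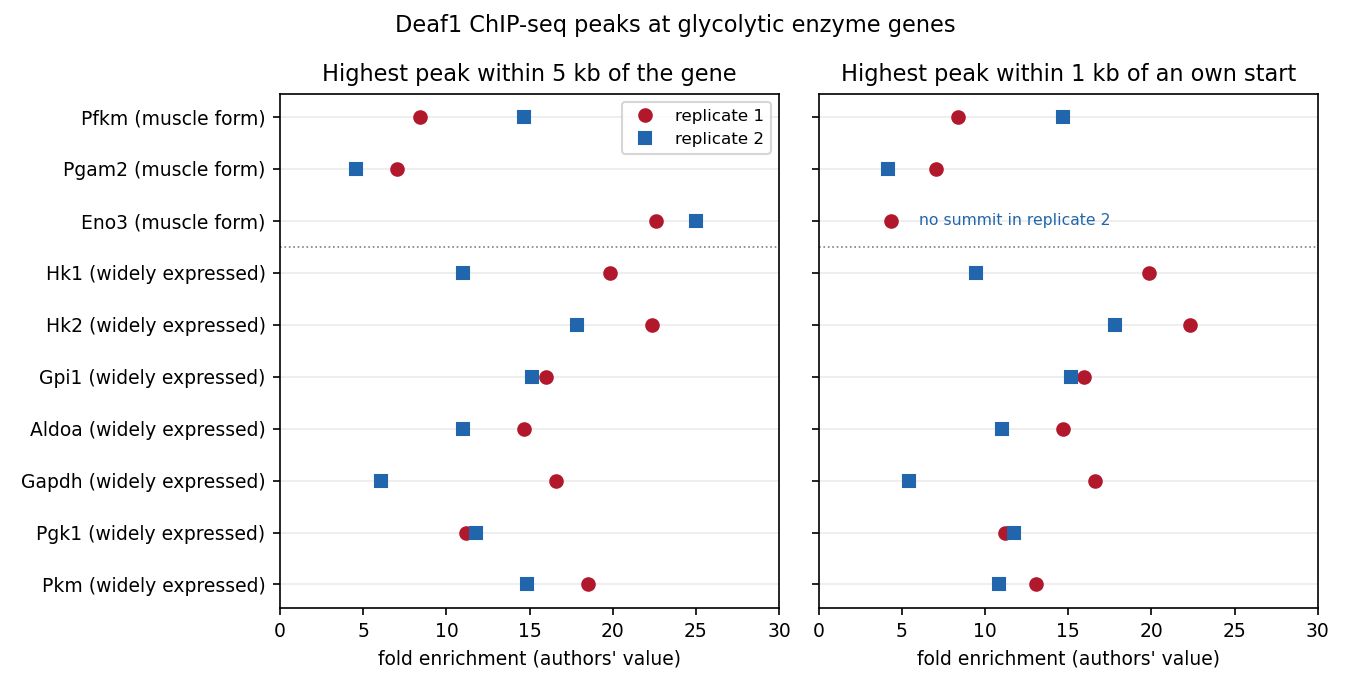
Highest fold of a Deaf1 peak at each of the 10 genes in replicate 1 (circles) and replicate 2 (squares), within 5 kb of the gene span (left) and within 1 kb of an annotated start of that gene (right). Eno3 had folds of 22.6 and 25.03 on the left, while on the right it kept a single replicate 1 peak with a fold of 4.36.

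The plot of highest folds shows how far each gene's best peak depended on where it was looked for. Eno3 changed most between the panels, and Pkm also had its highest peaks away from an own start. The other genes kept the same highest fold in replicate 1. In replicate 2 the highest fold within 1 kb of an own start was lower than that within 5 kb at Pgam2 (4.17 against 4.55), Hk1 (9.48 against 11.0) and Gapdh (5.45 against 6.07).

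Among the muscle forms, Eno3 had the highest folds, in regions inside its span but more than 1 kb from its listed start. Eno3 encodes beta-enolase, the form of enolase found in striated muscle, and spans 70653125 to 70662513 on chromosome 11. Its highest shared region had folds of 22.6 in replicate 1 and 25.03 in replicate 2, with pileups of 82 (65.2 to 102) and 65 (50.2 to 82.8) fragments. The second region had folds of 16.8 and 22.4. The remaining one had folds of 21.0 and 17.1. All 3 regions had an edge within 1 kb of the start of Pfn1, which encodes the actin-binding protein profilin 1 and whose span overlaps that of Eno3. The summits of the highest region were 134 and 493 bp from the Pfn1 start, and 2660 and 3019 bp upstream of the listed Eno3 start. They lay inside the Eno3 span, 1391 and 1032 bp from its 5′ end, which is not a listed start. Those of the region nearest to Eno3 were 1104 and 1170 bp upstream of the listed Eno3 start, nearer to it than to any other listed start. At the listed Eno3 start itself replicate 1 had a peak 34 bp upstream with a fold of 4.36, a −log10 q of 5.33 and a pileup of 15 (8.40 to 24.7). Replicate 2 had no summit within 1 kb of that start.

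Pfkm, the gene of the muscle phosphofructokinase, spans 98092589 to 98132447 on chromosome 15 and had a single shared region. Its summits lay 692 and 627 bp inside the outermost of the 4 annotated Pfkm starts. The nearest start of any gene was that of Senp1, a SUMO protease gene, 94 and 159 bp away. The fold was 8.35 in replicate 1 and 14.7 in replicate 2, although the pileup was higher in replicate 1, with 91 (73.3 to 112) against 70 (54.6 to 88.4) fragments. The local background behind it was 10.02 fragments in replicate 1 and 3.84 in replicate 2, where the lowest backgrounds of the lists were 2.13 and 1.64. On chromosome 15, 41.0% of replicate 1 peaks and 39.2% of replicate 2 peaks had a background raised by over 0.05 fragments, against 19.8% and 23.0% of all peaks. The fold of the Pfkm region was higher than that of 22.0% of shared regions in replicate 1 and of 68.2% in replicate 2. Each fold was (pileup + 1) / (background + 1), so replicate 1 had the lower fold through its higher background. Why the backgrounds differed was not tested.

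At the inner Pfkm starts summits came from replicate 1 alone. At the pair of starts that lie close together inside the gene, its highest peak was 98 bp inside the third start, with a fold of 8.39, a −log10 q of 24.8 and a pileup of 41 (29.4 to 55.6). Replicate 2 had no summit within 1 kb of either, and neither replicate had one at the fourth start. Further replicate 1 peaks followed inside the gene, the highest of them with a fold of 7.63.

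The highest fold at Pgam2 was the lowest of the 10 genes in each replicate. It encodes the muscle form of phosphoglycerate mutase, which moves the phosphate of 3-phosphoglycerate, and spans 5801637 to 5803796 on chromosome 11. The shared region at its start had summits 351 and 344 bp inside the gene, with folds of 7.02 in replicate 1 and 4.17 in replicate 2. The −log10 q values were 12.2 and 3.40 and the pileups 21 (13.0 to 32.1) and 10 (4.80 to 18.4) fragments. In fold it stood above 12.1% of shared regions in replicate 1 and 3.06% in replicate 2. A second shared region, with folds of 5.11 and 4.55, lay in the span of Dbnl, an actin-binding adaptor gene, 6729 and 6665 bp downstream of the Pgam2 start. The other 4 peaks of replicate 1 in this window had no partner.

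**Figure D2:**
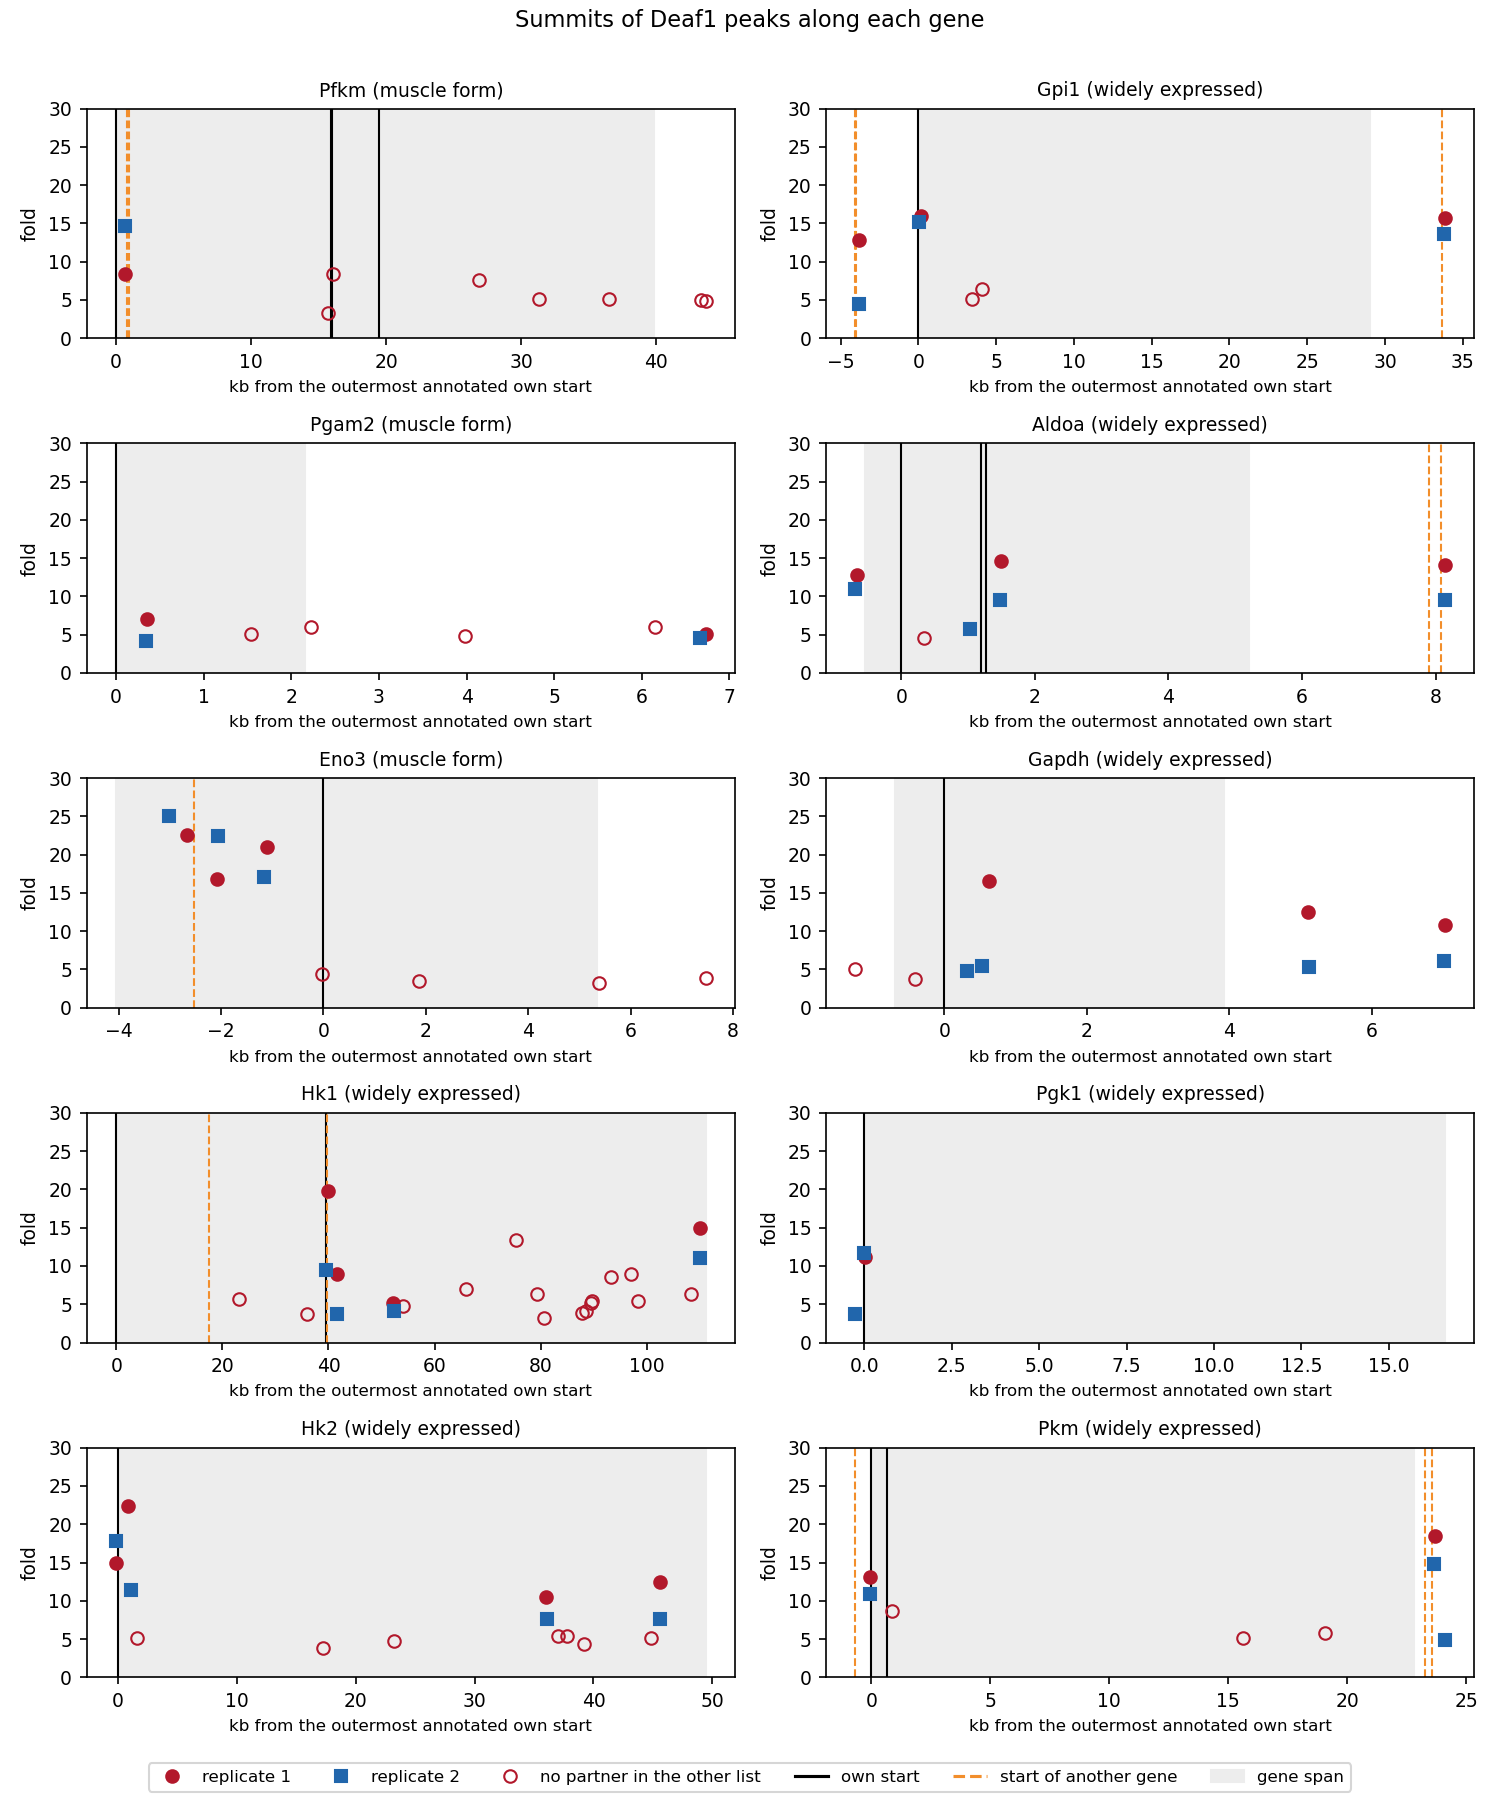
Fold of every Deaf1 peak (vertical axis) by the distance of its summit from the outermost annotated start of the gene in kb (horizontal axis, positive into the gene), with circles for replicate 1 and squares for replicate 2, filled where the other replicate had an overlapping peak. Grey marks the gene span, black lines the gene's own starts and dashed lines starts of other genes. At Eno3 the 3 shared regions each have an edge within 1 kb of the Pfn1 start, and the last of them has its summits nearer to the Eno3 start. Pgk1 has its peaks at its own start.

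The map of summits shows where the shared regions lay, for which shares over all shared regions are not given here. In 10 of the 26 the summits of both replicates lay within 1 kb of an own start, and 10 of the 26 had the start of another gene within 1 kb, noncoding genes included. The 2 groups overlap in 3 regions, at Pfkm, Hk1 and Pkm, and 9 regions belonged to neither.

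The hexokinase genes had peaks both at a start and deep in the gene. Hk1 encodes the hexokinase of brain and most other tissues and spans 62268855 to 62379920 on chromosome 10, the longest of the 10 genes. The region at its inner start had folds of 19.8 in replicate 1 and 9.48 in replicate 2, with summits 348 and 67 bp inside. The lncRNA gene Hk1os starts within 1 kb of this region. Its start was 161 bp from the replicate 1 summit, nearer than the Hk1 start, while the replicate 2 summit was nearest to the Hk1 start. The pileups were 62 (47.5 to 79.5) and 24 (15.4 to 35.7), a ratio of 2.58. At the outermost Hk1 start neither replicate had a summit within 1 kb. Near the far end of the gene a region with folds of 15.01 and 11.0 lay 70551 and 70609 bp from the inner start. A pair of weaker shared regions lay between, with folds of 5.11 and 4.17 in the one, and of 8.94 and 3.79 in the other. Replicate 1 had 19 peaks in the Hk1 window, 15 of them without a partner.

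Hk2, the insulin-responsive hexokinase of muscle and fat, had the highest fold within 1 kb of an own start in each replicate among the 10 genes. The highest fold came from a different region in each replicate. It spans 82725025 to 82774454 on chromosome 6. The region just upstream of the start had folds of 14.98 in replicate 1 and 17.8 in replicate 2, with summits 158 and 153 bp upstream and pileups of 64 (49.3 to 81.7) and 46 (33.7 to 61.4). A second region inside the gene, 804 and 1051 bp from the start, had folds of 22.3 and 11.4. By fold the order of the 2 regions was thus opposite in the replicates. Only the upstream region had both summits within 1 kb of the start. Its replicate 1 fold was below those of the start regions of Hk1 (19.8), Gapdh (16.6) and Gpi1 (15.96), and its replicate 2 fold was above theirs. In replicate 1 the region inside the gene had a pileup of 69 (53.7 to 87.3), and this interval overlapped that of the upstream region. The backgrounds there were 2.13 inside and 3.34 upstream. The other shared regions lay far inside the gene, with folds of 12.5 and 7.59 and of 10.5 and 7.59.

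Gpi1 encodes glucose-6-phosphate isomerase, which turns glucose 6-phosphate into fructose 6-phosphate, and spans 34201327 to 34230336 on chromosome 7. Its start region had folds of 15.96 in replicate 1 and 15.2 in replicate 2, with pileups of 49 (36.3 to 64.8) and 39 (27.7 to 53.3). The summits lay 180 and 62 bp inside the gene. The replicates were close here. The other 2 shared regions stood at starts of neighbours. One was 187 and 131 bp from the start of Pdcd2l with folds of 15.6 and 13.7, and the other 182 and 186 bp from that of the lncRNA gene Gm12762 with 12.8 and 4.42.

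Aldoa, the gene of the aldolase of muscle and most other tissues, spans 126795234 to 126800994 on chromosome 7 and has 3 annotated starts, of which the inner pair lie close together. The region at the inner pair had folds of 14.7 in replicate 1 and 9.48 in replicate 2, with summits 216 and 207 bp inside. A second lay 659 and 688 bp upstream of the outermost listed start, and 112 and 141 bp beyond the 5′ end of the span, with folds of 12.8 and 11.0. The region beyond the gene, with 14.1 and 9.49, stood 54 and 57 bp from a start of Ppp4c, the catalytic subunit gene of protein phosphatase 4. All 3 regions had higher folds in replicate 1.

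Gapdh had the highest ratio of replicate 1 to replicate 2 pileup among the 26 shared regions. It encodes the enzyme that oxidises glyceraldehyde 3-phosphate and has many processed copies in the mouse genome. How reads that fit several copies were placed is not stated. The gene spans 125161852 to 125166467 on chromosome 6. Its start region had folds of 16.6 in replicate 1 and 5.45 in replicate 2, with summits 633 and 530 bp inside. The pileups were 51 (38.0 to 67.1) and 14 (7.65 to 23.5), a ratio of 3.64 that was higher than in 99.5% of shared regions. Both other regions lay in the span of the neighbouring Iffo1. Their folds were 12.5 and 5.31 in the nearer, and 10.9 and 6.07 in the farther. All 3 regions had a replicate 1 pileup at least 2.20 times that of replicate 2, above the median ratio of 1.44.

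**Figure D3:**
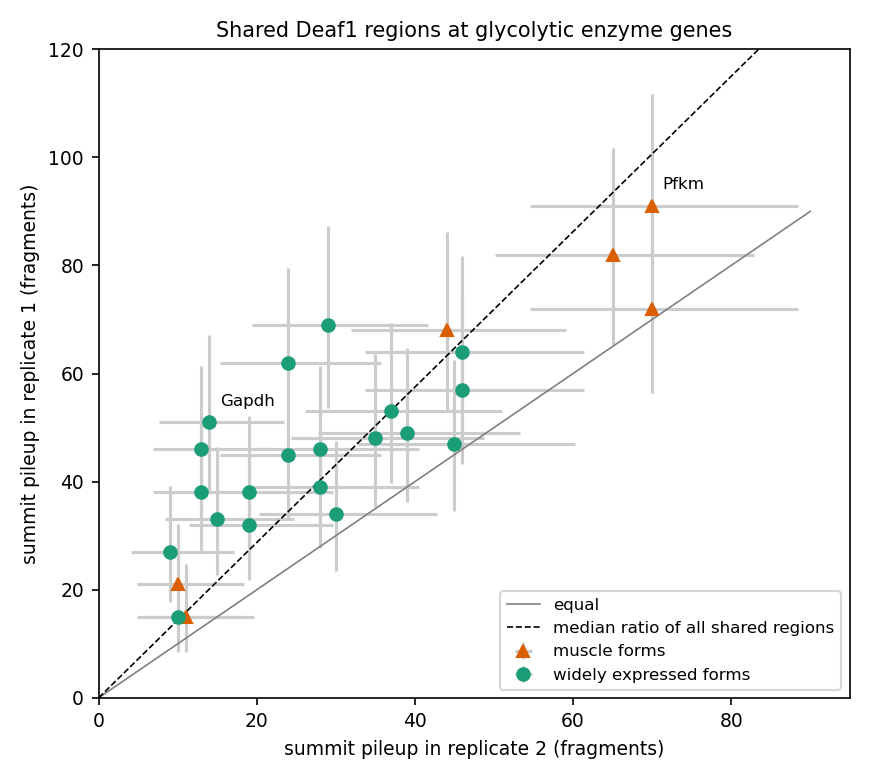
Summit pileup in fragments of the 26 shared regions in replicate 2 (horizontal) and replicate 1 (vertical), with triangles for muscle forms, circles for widely expressed forms and bars for exact 95% Poisson intervals. The dashed line is the median ratio of all shared regions, 1.44; the Gapdh start region (51 and 14 fragments) lies far above it and the Pfkm region (91 and 70) just below.

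The plot of pileups shows the same 26 regions by depth. Replicate 1 had the higher pileup in all 26, where 91.0% of all shared regions did, and the higher fold in 21. The median ratio of the 26 was 1.52. Summits of the replicates lay within 100 bp of each other in 21 of 26, and in 83.2% of all shared regions.

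Pgk1 had the fewest peaks of the 10 genes. It encodes phosphoglycerate kinase, the first step that gains ATP, and spans 106187100 to 106203699 on the X chromosome. Its only shared region lay on the start, with summits 17 and 2 bp inside the gene and folds of 11.2 in replicate 1 and 11.8 in replicate 2. The pileups were 34 (23.5 to 47.5) and 30 (20.2 to 42.8). Replicate 2 had a further summit 247 bp upstream with a fold of 3.79 in the same region, and the rest of the window held none. Pgk1 had no shared region when the overlap had to cover at least as much of each peak as it left out.

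Pkm encodes the pyruvate kinase of muscle and most other tissues, which makes pyruvate and ATP, and spans 59656576 to 59679372 on chromosome 9. At its outer start the folds were 13.1 in replicate 1 and 10.8 in replicate 2, with summits 71 and 78 bp upstream. Pileups were 47 (34.5 to 62.5) and 45 (32.8 to 60.2). The lncRNA gene Gm51708 starts within 1 kb of this region. Replicate 1 had a further peak 205 bp inside the inner start, with a fold of 8.72 and no partner in replicate 2. The highest peaks of the window, with folds of 18.5 and 14.8, lay beyond the gene, 123 and 63 bp from a start of Gramd2.

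Shared regions at the muscle forms stood beside starts of other genes in 4 of 6 cases, counting the Eno3 region with summits nearer to the Eno3 start, and at the widely expressed forms in 6 of 20. The 4 were all 3 Eno3 regions, which share the Pfn1 start, and the Pfkm region beside the Senp1 start. The same share over all shared regions is not given here. When regions with the start of another gene within 1 kb were left out, 1 of 3 muscle forms and 6 of 7 widely expressed forms still had a shared region, against 52.5% of all genes. The muscle form was Pgam2, and the widely expressed form that had none left was Pkm. Another count took genes with summits of both replicates within 1 kb of the same annotated start, whether or not another gene started nearby. It held for 2 of 3 muscle forms and for 7 of 7 widely expressed forms. The muscle forms were Pgam2 and, through its region beside the Senp1 start, Pfkm. Of the 17274 protein-coding genes with a start in the table, 54.0% met it. The widely expressed forms had highest folds within 1 kb of an own start that ran from 11.2 to 22.3 in replicate 1 and from 5.45 to 17.8 in replicate 2. Hk2, the hexokinase of muscle and fat, set the top of both ranges, through peaks of different regions. Pgam2, with 7.02 and 4.17, lay below both ranges. Pfkm lay below the first with 8.39 and inside the second with 14.7, but these are different peaks. The 8.39 came from the replicate 1 peak at an inner start. The 14.7 came from the shared region beside the Senp1 start, which had 8.35 in replicate 1. With 3 genes against 7 in the same pair of libraries, no test of muscle against widely expressed forms was made.

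The starts also differed in CpG content, which the choice of genes did not use. In the 250 bases before the start the 6 starts of muscle forms held from 1 to 10 CpG dinucleotides with a median of 3. The 11 starts of widely expressed forms held from 0 to 25 with a median of 17. Over all 21045 starts of protein-coding genes the median was 10. Starts with 16 or more CpG had summits of both replicates within 1 kb in 6 of 6 cases among the glycolytic genes, against 91.9% of all such starts. With 6 to 15 CpG it was 3 of 5, against 61.9%, and with 5 or fewer it was 3 of 6, against 7.81%. Those 3 were the outermost starts of Pfkm and Aldoa and the start of Pgam2. The Pfkm summits were 692 and 627 bp inside the gene and nearer to the Senp1 start. The Aldoa summits with the highest folds were 659 and 688 bp upstream, and the Pgam2 summits 351 and 344 bp inside. None of these lay in the 250 bases in which CpG was counted. The stretches before some starts of a gene overlap, so starts are not independent.

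**Figure D4:**
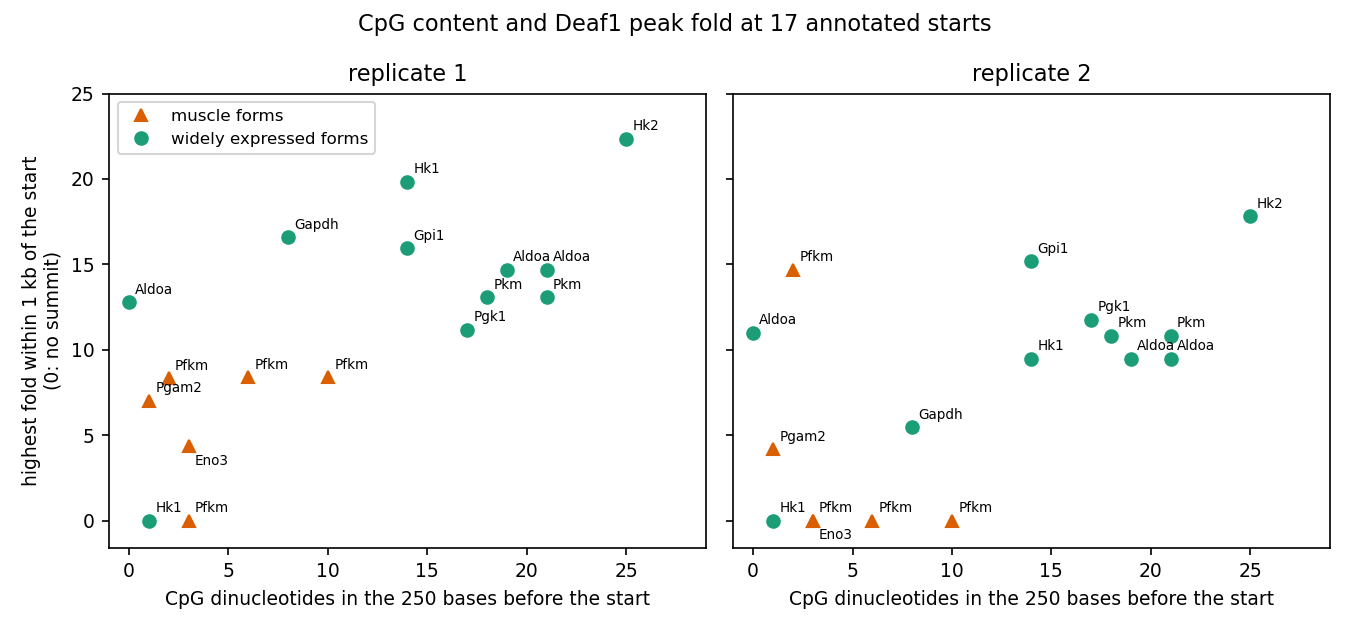
Highest fold of a Deaf1 summit within 1 kb of each of 17 annotated starts (vertical; 0 where there was none) by the number of CpG dinucleotides in the 250 bases before the start (horizontal), in replicate 1 (left) and replicate 2 (right), with triangles for muscle forms and circles for widely expressed forms. The Hk2 start, with 25 CpG, has the highest value in both replicates, from different regions, and the starts of muscle forms lie at 10 CpG or fewer.

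The plot of fold by CpG content shows that starts rich in CpG all had a summit, while those poor in CpG were mixed. The outermost Aldoa start held 0 CpG and had folds of 12.8 and 11.0 from the region 659 and 688 bp upstream. Both Pfkm starts with 6 and 10 CpG had no replicate 2 summit.

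The TTCG motif or its reverse complement CGAA, which may overlap each other, stood before 3 of 6 starts of muscle forms and 7 of 11 starts of widely expressed forms. It was found before 42.97% of all protein-coding starts in the same 250 bases. Among the stretches printed above, the inner Pfkm start and Pgk1 held it 2 times, and the outermost Pfkm start, Eno3, Gapdh and Gpi1 held it 1 time each. Those of Pgam2 and Aldoa held none. The inner start of Pkm held 3. Of the 10 glycolytic starts with the motif 8 had summits of both replicates within 1 kb, and of the 7 without it 4 did. Over all starts the shares were 66.1% with the motif and 41.5% without. Among starts with 16 or more CpG they were 90.7% and 93.5%, among those with 6 to 15 CpG 60.8% and 63.2%, and among those with 5 or fewer 10.2% and 7.19%. A match of 4 letters is a description of the sequence and not a binding site.

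Other genes of the same enzyme steps gave a contrast by isoform. Of 16 such genes 10 had a shared region within 5 kb, close to the 63.6% of all genes. Of the 13 with a listed start 5 had summits of both replicates within 1 kb of it, against 54.0% of all genes. At the phosphofructokinase step, the platelet form Pfkp had summits 5 and 6 bp from its own start, with folds of 13.9 in replicate 1 and 19.7 in replicate 2. The liver form Pfkl had 11 peaks in replicate 1, 1 in replicate 2 and no shared region. At the mutase step, Pgam1, the form of most tissues, had folds of 15.96 and 11.8 with summits 27 and 5 bp from its start. At the enolase step, the widely expressed Eno1 had folds of 25.9 and 22.1, with summits 121 and 114 bp from its start. The neuronal form Eno2 had 18.2 and 11.5 at its own start and 25.2 and 28.4 at a region 13498 and 13032 bp away.

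The other genes of these steps ranged from no peak to folds above those of most members. The testis form Pgk2 and Eno1b had no peak in either replicate, and Hk3 and Bpgm had peaks in replicate 1 alone. Pklr of liver and red cells had highest folds of 10.5 and 5.69 among its 2 shared regions, whose summits lay 3551 bp or more from its nearest start. Hkdc1 had 8.62 and 5.31 at a region 23914 and 23912 bp from its nearest start. The region at Aldoc, with folds of 22.3 and 22.4, stood within 1 kb of the start of Pigs, and that at Gapdhs, with 11.5 and 8.90, of Tmem147. That at Eno4, with 14.7 and 14.0, had summits 235 and 258 bp from the Eno4 start and also lay within 1 kb of the start of Hspa12a.

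In a wider list of 48 genes of glucose use, with the 10 members among them, 39 had a shared region within 5 kb, against 63.6% of all genes. In all, 29 of the 43 genes with an annotated start had summits of both replicates within 1 kb of the same start, against 54.0% of all genes. Among the 38 genes besides the members the counts were 29 of 38 and 20 of 33. Taken over shared regions only, the median highest fold of the called members was 16.3 in replicate 1 and 13.2 in replicate 2. Over all called genes it was 17.2 and 16.2. Outside the enzyme steps above, the highest mean of both folds belonged to Slc16a1, which encodes the lactate transporter MCT1, with 25.2 and 30.7. The pyruvate dehydrogenase kinase genes Pdk3, with 23.9 and 20.1, and Pdk1, with 22.3 and 20.5, came next. Slc16a3, the gene of the lactate exporter MCT4, had 21.5 and 20.9, and Hif1a, the hypoxia factor that drives glycolytic genes, had 19.8 and 22.1. In all 5 genes the summits of the highest region lay between 58 and 219 bp from an own start.

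Some peaks lay close to the limit of 5 kb. Just inside it stood a Pgam2 peak of replicate 1, 4511 bp away with a fold of 5.11, and the 2 Gpi1 peaks at Pdcd2l, 4518 and 4707 bp from the span, with folds of 15.6 and 13.7. Just outside were an Eno3 peak of replicate 1, 5055 bp away, with a fold of 4.15, and one of replicate 2, 6032 bp away, with 18.1. A Hk1 peak of replicate 1 with a fold of 4.79 lay 5807 bp away.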

How the data were processed

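BWA, MACS2 and the mm10 build are named in the submitters' lists, per the submitters' processing notes. Versions and parameters, how reads that fit several places were placed, and which control entered the calling: not given in the sources used here. Each ChIP sample has its own peak list, so calling was per sample. The fold enrichment (a ratio), the −log10 p and −log10 q, the score made from them and the summit are the authors' deposited values for each peak. No value is a read count, and the depth of the samples is unknown.

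The members and gene lists were chosen with earlier results of these data known. Gene spans and starts came from RefSeq (GRCm38.p6); strand and starts are from a table of promoters that held all 10 members but not every 5′ end of a span, and exons and introns were not used. A shared region was a block of peaks of both replicates that overlap by at least 1 bp. Pileup and background were solved from fold = (pileup + 1) / (background + 1) and the Poisson p-value, with a largest misfit in −log10 p of 4.07e-05 in replicate 1 and 3.87e-05 in replicate 2. The scripts were tested on simulated data. No test between groups was run, since there is no second condition with a peak list. Named genes were the 10 members, the other genes of their enzyme steps, the 5 further called genes of the wider list with the highest mean of both folds, and neighbours of member regions. Some genes of the enzyme steps entered the counts and are not reported here by name. Alternatives changed the window, the thresholds, the overlap, the list length and the replicates. Python 3.11.15, NumPy 2.4.6, pandas 2.3.3, SciPy 1.17.1 and Matplotlib 3.10.9 were used.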

Additional observations from a re-analysis of the deposited data

How the results depend on the processing

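No paired analysis was possible because the inputs have no peak list, and the counts and shares given here come from no test between groups. The settings without regions near another gene's start and with genes of the members' span lengths were chosen after seeing the data. Of the 10 members, from 7 (no region near another start) to 10 were called, and 9 where fold had to reach 5 or where −log10 q had to (Pgam2 lost its call in both), or under a stricter overlap that covers at least as much of each peak as it leaves out (Pgk1 lost its call, so 6 of 7 widely expressed forms kept theirs). Muscle forms fell to 1 of 3 without regions near another start, and shared regions at members to 16. Members called at a start ran from 6 (summits within 100 bp) to 10. With replicate 2 or replicate 1 alone, member peaks numbered 30 to 71 and the share of all genes called 64.2% to 72.9%. That share was 60.8% with a 1 kb window, 58.8% inside the span and 66.2% with 10 kb. It was 62.0% with a −log10 q of 5 or more, 60.7% with a fold of 5 or more, 58.1% with the stricter overlap, 56.8% with summits within 100 bp and 62.1% with lists of equal length. It was 52.5% without regions near another start and 67.9% for genes of the members' span lengths. Each share differs by construction of its setting. Pileup intervals cover counting error only.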
